A study of Arabidopsis thaliana with 12 samples.

Results

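The nuclear genes of Arabidopsis thaliana that encode the photosystem subunits and their light-harvesting antenna were examined as a set of 40 genes, chosen by their locus codes from the 33602 genes of the count table. They comprise 18 antenna genes (the LHCB1 to LHCB6 and LHCA1 to LHCA4 families), 12 PSA genes for photosystem I subunits and 10 PSB genes for photosystem II subunits. All 40 passed the filter on low counts, with levels from 28 to 17645 CPM (read counts scaled by the effective library size) in single libraries. RNA was sequenced from whole 2-week-old soil-grown plants in 4 groups of 3 biological replicates: the rdd triple mutant, in the Col-0 background, grown with YC4-R4 in the soil (rdd YC4-R4), the same mutant in regular soil (rdd control), wild-type Col-0 with YC4-R4 (Col-0 YC4-R4) and wild-type Col-0 in regular soil (Col-0 control). YC4-R4 is the soil treatment of the labels, in a study whose title concerns beneficial rhizobacteria and active DNA demethylation. The name rdd stands for a line mutated in ROS1, DML2 and DML3, which encode DNA demethylases that remove cytosine methylation. Library totals ran from 14465710 to 20281801 counts.

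Of the 3 demethylase transcripts, DML2 and DML3 differed more by soil label than by genotype label. DML3 had 0.953, 0.267 and 0.577 CPM in the libraries labelled rdd YC4-R4, 3.41, 3.67 and 3.47 CPM in rdd control, 1.07, 0.937 and 0.316 CPM in Col-0 YC4-R4 and 4.5, 5.89 and 4.53 CPM in Col-0 control. Its levels were low in both YC4-R4 groups and higher in both control groups. In control soil it was also lower under the rdd label, without overlap, at -0.50 ± 0.20 on the log2 scale (edgeR quasi-likelihood, Benjamini-Hochberg adjusted p = 0.0431), a call that was lost with library totals in place of TMM, in DESeq2, under the replicate block, without Col-0 control replicate 2, without rdd control replicate 1, without rdd control replicate 2 and without rdd control replicate 3. In YC4-R4 soil the libraries of the 2 genotype labels overlapped. DML2 averaged 13.5 ± 0.432 CPM in the rdd YC4-R4 libraries, 20.7 ± 2.11 in rdd control, 13 ± 1.38 in Col-0 YC4-R4 and 19.9 ± 0.42 in Col-0 control (SD, n = 3 each). It was not called between the genotype labels in either soil, while ROS1 averaged 74.5 ± 1.68, 79.9 ± 2.23, 69.6 ± 1.58 and 82 ± 3.94 CPM in those 4 groups. The labels do not say how the alleles are interrupted, so these transcripts need not be scarce in the mutant, and they leave the genotype labels unchecked. If the names of rdd control and Col-0 YC4-R4 were exchanged, DML2 and DML3 would be low in both groups then named rdd and higher in both then named Col-0. The comparison of the soils in rdd would then trade places with that of the genotypes in YC4-R4 soil, and the comparison of the soils in Col-0 with that of the genotypes in control soil, while the interaction of genotype and soil would not change. Whether these names were exchanged was not tested. Every group below is therefore named by its labels alone, and each direction given for soil or genotype holds for the libraries as labelled.

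Photosystem II and photosystem I are the pigment-protein complexes of the thylakoid membrane that turn absorbed light into electron flow. Each has a core, in which photochemistry takes place, and an outer antenna of chlorophyll a/b-binding proteins that passes excitation energy to it. The antenna proteins and many small core subunits are encoded in the nucleus and imported into the chloroplast, whereas the reaction-centre proteins are made from chloroplast genes, and the transcripts of the nuclear genes are among the most abundant of green tissue.

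The 40 genes took the largest share of the library in Col-0 control and a smaller one in the other 3 groups. They held 9.19% ± 0.13 of all counts in the libraries labelled rdd YC4-R4, 9.87% ± 0.39 in rdd control, 9.96% ± 0.06 in Col-0 YC4-R4 and 12.3% ± 0.23 in Col-0 control (SD, n = 3 each). The 18 antenna genes alone held 5.44% ± 0.22, 6.02% ± 0.28, 5.99% ± 0.015 and 7.80% ± 0.18 in these groups. In 39 of the 40 genes, all 3 Col-0 control libraries lay above the other 9 libraries, an order found in 11.1% of all 20651 genes tested. The exception was LHCB4.3, the rarest of the 40. By group means, Col-0 control was highest in the same 39 genes (27.7% of all genes) and rdd YC4-R4 lowest in 29 (21.9% of all genes). The 3 rdd YC4-R4 libraries lay below the other 9 in 18 of the 40 genes, 11 of them antenna genes, against 5.84% of all genes tested. In whole-plant RNA, fewer green cells and less of a transcript per green cell cannot be told apart.

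**Figure D1:**
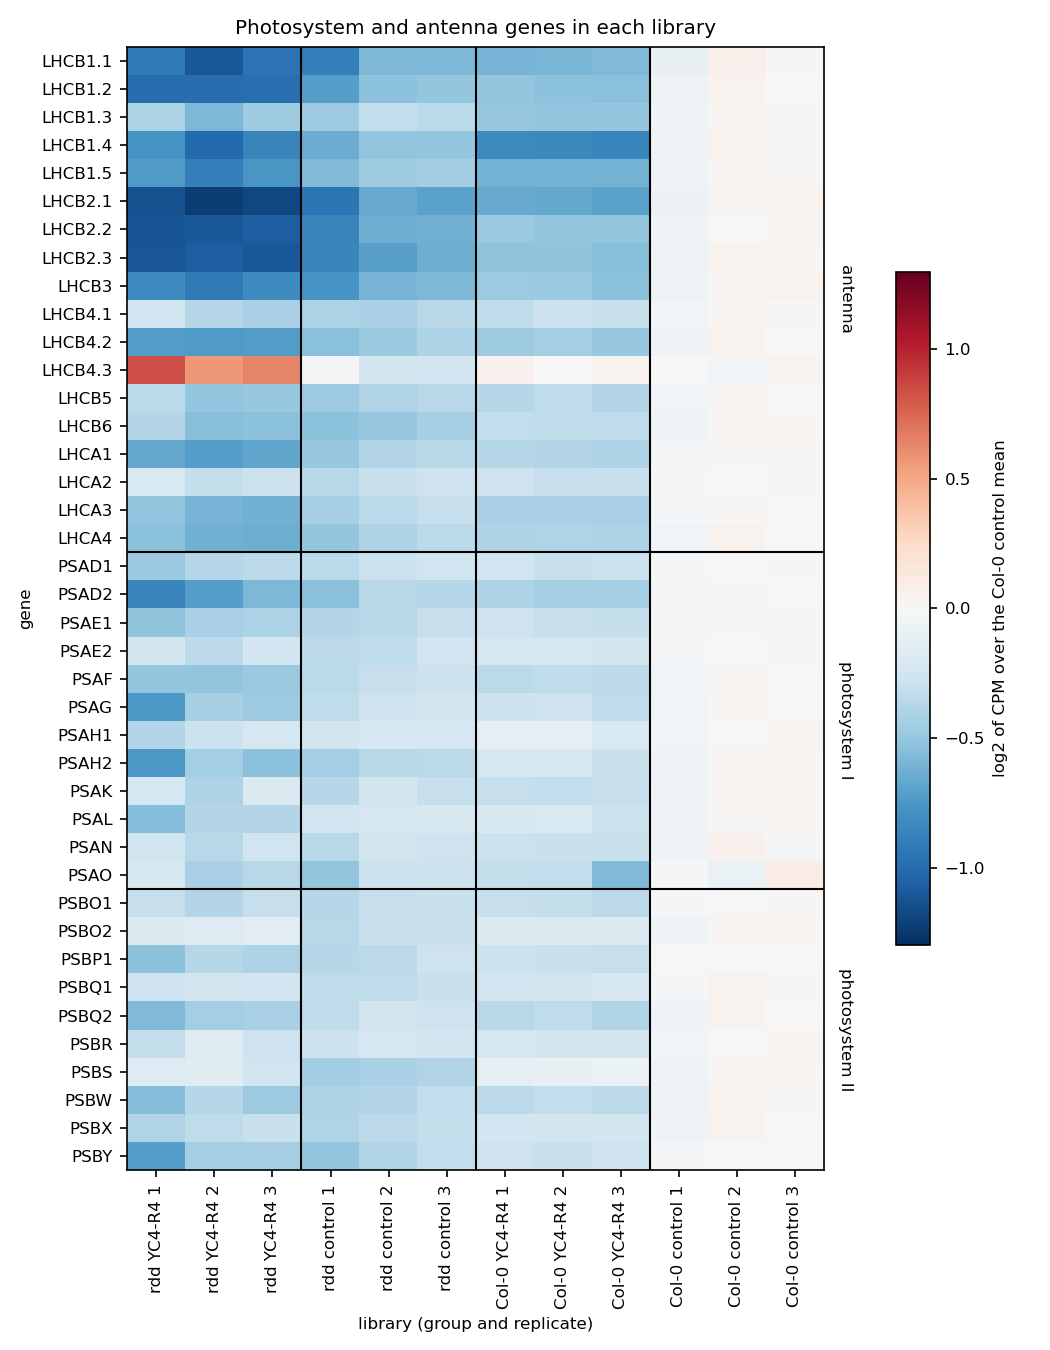
Heat map of the 40 genes (rows, grouped as antenna, photosystem I and photosystem II) in the 12 libraries (columns, 3 per group), coloured by the log2 of the CPM over the mean CPM of Col-0 control. Blue is lower and red is higher than Col-0 control: all rows but LHCB4.3 are blue in the 9 libraries outside Col-0 control, deepest for LHCB2.1, LHCB2.2 and LHCB2.3 in rdd YC4-R4, and LHCB4.3 is red in rdd YC4-R4.

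Within each genotype, the libraries labelled YC4-R4 were set against those labelled control. In Col-0, 39 of the 40 genes fell and none rose (adjusted p under 0.05, edgeR quasi-likelihood with Benjamini-Hochberg adjustment), while of all genes 29.8% were called, 16.9% lower and 12.9% higher. The median log2 fold change was -0.32 over the 40 genes and 0.00 over all genes, and the YC4-R4 libraries lay wholly below the control libraries in 39 genes, against 23.1% of all genes, and wholly above in none, against 20.1%. In rdd, 22 of the 40 fell and 3 rose, while of all genes 32.2% were called, 17.1% lower and 15.1% higher, with a median of -0.11 over the 40 genes. There the YC4-R4 libraries lay wholly below in 19 genes (21.2% of all genes), wholly above in 4 (20.0% of all genes) and overlapped the control libraries in 17.

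Between genotypes, the libraries labelled rdd were lower than those labelled Col-0 in all 40 genes in control soil, while of all genes 43.9% were called, 23.0% lower and 20.9% higher. The median log2 fold change there was -0.37, and in 39 genes the rdd libraries lay wholly below (26.9% of all genes; 25.7% lay wholly above). In YC4-R4 soil, 26 of the 40 were lower and 1, LHCB4.3, was higher, while of all genes 28.7% were called, 14.4% lower and 14.3% higher. The median was -0.14, and the rdd libraries lay wholly below in 27 genes (19.3% of all genes) and wholly above in 2 (19.7%). The comparison of the soils in Col-0 and that of the genotypes in control soil share the 3 Col-0 control libraries, so their similar values are not independent. The difference between the 2 soil effects was tested as an interaction: the log2 fold change with YC4-R4 under the rdd label, less the one under the Col-0 label. It was positive in all 40 genes and called in 31, while of all genes 30.6% were called, 16.2% positive and 14.4% negative. Its median over the 40 was 0.24. The interaction adds the rdd YC4-R4 and Col-0 control levels and subtracts the other 2 groups, so its value is the same whichever of rdd control and Col-0 YC4-R4 carries which name.

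Abundance alone was set beside these counts. Of the 156 other genes at least as abundant as the rarest of the 39 members that leave out LHCB4.3, 46.8% rose and 23.1% fell with YC4-R4 in rdd, and 12.8% rose and 56.4% fell in Col-0. For rdd against Col-0, 38.5% were higher and 22.4% lower in YC4-R4 soil, and 22.4% were higher and 63.5% lower in control soil. The interaction was called positive in 59.0% of them and negative in 14.1%. Abundant genes outside the set thus also ran lower in Col-0 YC4-R4, and in rdd control, than in Col-0 control, while with YC4-R4 in rdd and between the genotypes in YC4-R4 soil their calls leaned the other way from those of the 40.

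**Figure D2:**
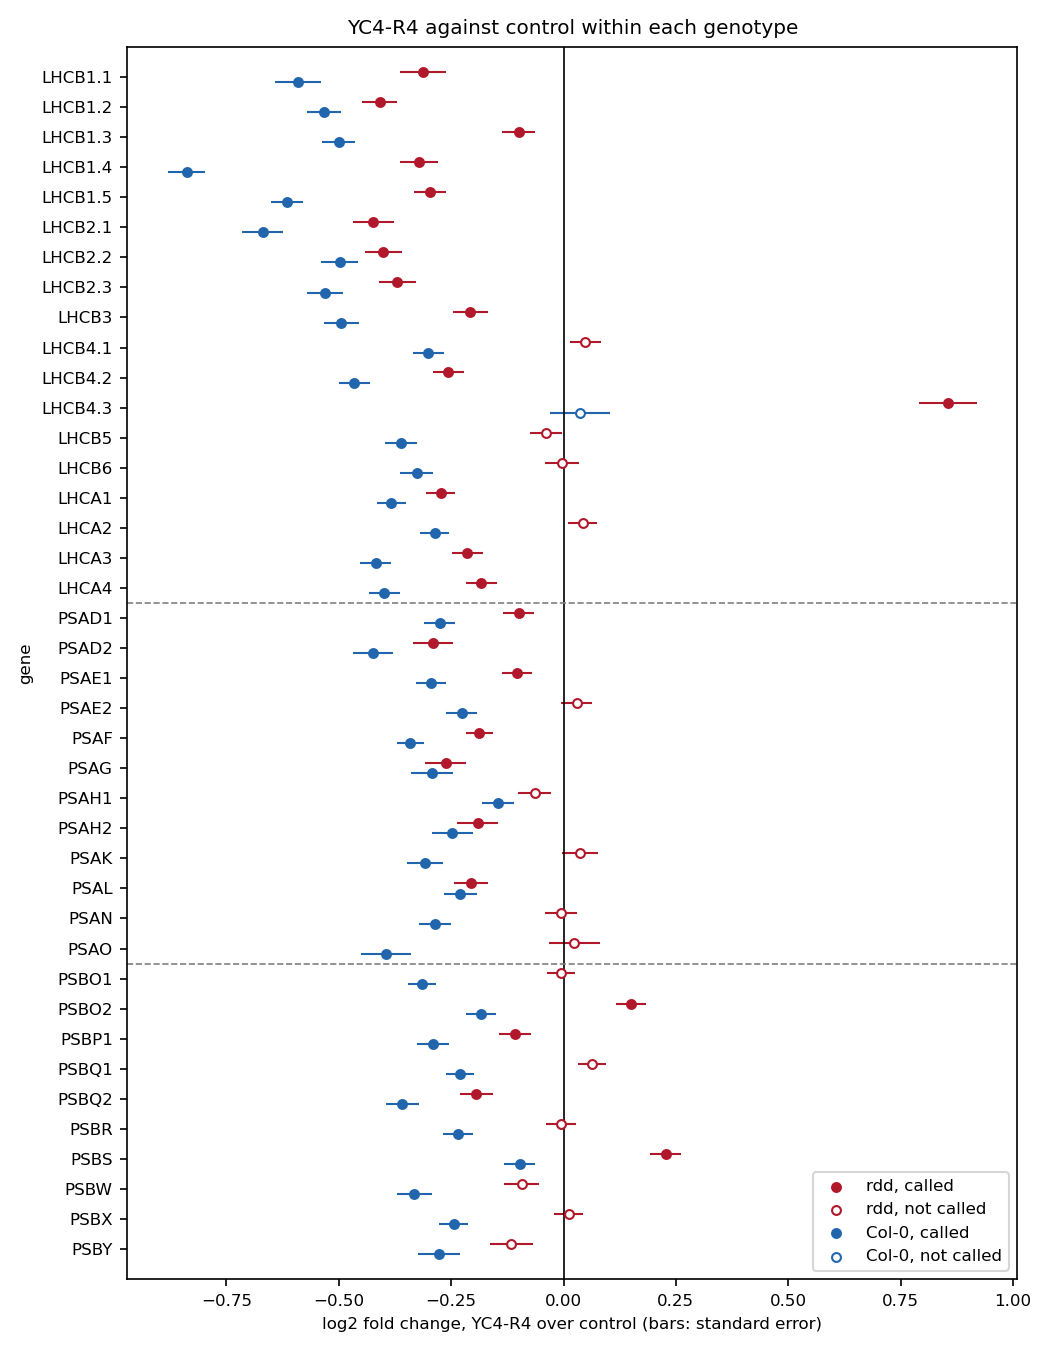
Log2 fold change of YC4-R4 over control (x axis) for each of the 40 genes (y axis), with rdd in red and Col-0 in blue; bars are standard errors, filled points were called at an adjusted p under 0.05 and open points were not. Every red point lies to the right of its blue partner, and 31 of these 40 differences were called in the interaction test.

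The LHCB1 genes encode the main protein of the trimeric antenna of photosystem II, LHCII, and 5 copies were counted. All 5 fell with YC4-R4 in both genotypes as labelled. Per kilobase of annotated exon, LHCB1.3 (AT1G29930, chr1:10477885-10479114) had the highest level of the 40 genes, at 10020.3 ± 598 CPM per kb in rdd YC4-R4, 10737 ± 589 in rdd control, 9902 ± 44.6 in Col-0 YC4-R4 and 14006 ± 466 in Col-0 control. It had 12929, 11506 and 12540.2 CPM in the libraries labelled rdd YC4-R4, 12385, 13755 and 13479 CPM in rdd control, 12222, 12118 and 12199.5 CPM in Col-0 YC4-R4 and 16574, 17645 and 17464 CPM in Col-0 control. The Col-0 control libraries stood above the rest, and the 3 rdd YC4-R4 libraries overlapped those of rdd control and of Col-0 YC4-R4. Its log2 fold change with YC4-R4 was -0.10 ± 0.04 in rdd (edgeR quasi-likelihood, Benjamini-Hochberg adjusted p = 0.0338) and -0.50 ± 0.04 in Col-0 (SE), and the interaction was 0.40 ± 0.05. The rdd call was lost with library totals in place of TMM, in DESeq2, with the 2 groups fitted alone, without rdd control replicate 2, without rdd control replicate 3 and without rdd YC4-R4 replicate 2. Between rdd and Col-0 in YC4-R4 soil LHCB1.3 was not called, at 0.02 with a 95% interval of -0.07 to 0.10.

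LHCB1.4 (AT2G34430, chr2:14524607-14525918) changed most in Col-0. It had 2752, 2318 and 2571 CPM in rdd YC4-R4 against 2993, 3266 and 3291 CPM in rdd control, and 2627, 2614 and 2593 CPM in Col-0 YC4-R4 against 4481, 4807 and 4722 CPM in Col-0 control. In both pairs the YC4-R4 libraries lay wholly below the control ones. The log2 fold change was -0.32 ± 0.04 in rdd and -0.84 ± 0.04 in Col-0 (edgeR quasi-likelihood, Benjamini-Hochberg adjusted p = 9.4e-08 and 2.12e-18), and the interaction of 0.52 ± 0.06 ranked next after that of LHCB4.3 among the 40. In rdd LHCB1.1 gave -0.31, LHCB1.2 -0.41 and LHCB1.5 -0.30, and in Col-0 they gave -0.59, -0.53 and -0.62. The make-up of the LHCB1 pool differed between groups: LHCB1.3 held 48.4% ± 0.19 of the LHCB1 counts in rdd YC4-R4, 44.5% ± 0.43 in rdd control, 43.9% ± 0.13 in Col-0 YC4-R4 and 41.7% ± 0.16 in Col-0 control. LHCB1.2 held 9.9% ± 0.53, 11.3% ± 0.26, 12.5% ± 0.091 and 12.1% ± 0.07 in the same groups (SD, n = 3 each).

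How far the LHCB1 copies can be told apart bears on these values. LHCB1.1 (AT1G29920, chr1:10474656-10475969, minus strand), LHCB1.2 (AT1G29910, chr1:10472280-10473502, minus strand) and LHCB1.3 (chr1:10477885-10479114, plus strand) lie side by side in the RefSeq annotation of TAIR10.1, each as a single exon, and their coding sequences are 95.6% to 96.4% identical, differing at 47 of 804 positions. The stretch below, coding bases 25 to 84 of each gene from the RefSeq genome of TAIR10.1, is shown because it holds 8 of those 47 positions, which are in capitals.
LHCB1.1: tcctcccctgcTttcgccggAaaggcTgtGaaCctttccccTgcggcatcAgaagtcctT
LHCB1.2: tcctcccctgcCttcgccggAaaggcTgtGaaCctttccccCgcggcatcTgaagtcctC
LHCB1.3: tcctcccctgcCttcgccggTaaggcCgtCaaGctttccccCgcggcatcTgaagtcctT
Of all 50-base words in the exons, 20.5% of LHCB1.1, 10.6% of LHCB1.2, 17% of LHCB1.3, 13.7% of LHCB1.4 and 17.3% of LHCB1.5 also occur elsewhere in the genome. Of the 100-base words, 4.4%, 1.5%, 3.3%, 3.3% and 4.2% do so, in the same order. Reads within such words cannot be placed on 1 copy, so values of single copies are uncertain, to a degree that depends on read length. With the counts of LHCB1.1 to LHCB1.3 added before the fit, the sum changed by -0.11 on the log2 scale between rdd and Col-0 in YC4-R4 soil, the opposite sign to LHCB1.3 alone. LHCB1.3 also overlaps a tested gene on the opposite strand by 108 bases, and LHCB1.5 one by 99 bases.

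LHCB2 encodes the second LHCII protein, the one whose phosphorylation is tied to state transitions. Its 3 copies were lower in all 4 comparisons of 2 groups and had the 3 lowest log2 fold changes of the 40 genes between rdd and Col-0, in either soil. LHCB2.1 (AT2G05100, chr2:1822990-1824480) had 909.5, 851 and 877 CPM in the libraries labelled rdd YC4-R4, 1039.6, 1265 and 1228 CPM in rdd control, 1264, 1255 and 1230.0 CPM in Col-0 YC4-R4 and 1884, 2029.9 and 2049.5 CPM in Col-0 control. The 4 groups formed 3 levels: rdd YC4-R4 lowest, rdd control and Col-0 YC4-R4 together, and Col-0 control highest. LHCB2.2 (AT2G05070, chr2:1799234-1800472) followed the same order with 700.2, 713 and 728 CPM in the libraries labelled rdd YC4-R4, 845, 988 and 995 CPM in rdd control, 1097, 1074 and 1075 CPM in Col-0 YC4-R4 and 1481, 1536 and 1569 CPM in Col-0 control, except that rdd control lay wholly below Col-0 YC4-R4. LHCB2.3 (AT3G27690, chr3:10255906-10257489), rarer per kilobase, averaged 334 ± 5.47 CPM in rdd YC4-R4, 431 ± 31.3 in rdd control, 493 ± 5.97 in Col-0 YC4-R4 and 712 ± 29.3 in Col-0 control (SD, n = 3 each).

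With YC4-R4, LHCB2.1 changed by -0.42 ± 0.05 in rdd and -0.67 ± 0.05 in Col-0 (log2, SE), LHCB2.2 by -0.40 ± 0.04 and -0.50 ± 0.04, and LHCB2.3 by -0.37 ± 0.04 and -0.53 ± 0.04. In rdd these values and that of LHCB1.2 were the 4 lowest of the 40. Between rdd and Col-0 the 3 copies gave -0.51, -0.60 and -0.56 in YC4-R4 soil and -0.75, -0.70 and -0.72 in control soil. The interaction was 0.25 ± 0.06 for LHCB2.1 (edgeR quasi-likelihood, Benjamini-Hochberg adjusted p = 0.00279) and 0.16 ± 0.06 for LHCB2.3 (adjusted p = 0.0267, same test). The LHCB2.1 call was lost in DESeq2 and the LHCB2.3 call with library totals in place of TMM, without Col-0 control replicate 2, without Col-0 control replicate 3, without Col-0 YC4-R4 replicate 3 and without rdd control replicate 1. It was not called for LHCB2.2, at 0.10 with a 95% interval of -0.04 to 0.23. LHCB2.1 and LHCB2.2 share 23.5% and 29.5% of their 50-base words, and 10.7% and 13.7% of their 100-base words, with another place in the genome. They are 96.6% identical in coding sequence, so their separate values are uncertain. LHCB2.3 overlaps a tested gene on the opposite strand by 595 bases.

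The promoters of LHCB2.1 and LHCB2.2 are printed because these near-identical copies were both lower in all 4 comparisons of 2 groups, while their interaction was called for LHCB2.1 alone. They are the 250 bases before the annotated gene start in TAIR10.1, for LHCB2.1 at chr2:1824481-1824730, minus strand, and for LHCB2.2 at chr2:1800473-1800722, minus strand, read 5′ to 3′ on the gene's strand, with matches to the motifs listed further on in capitals.
LHCB2.1: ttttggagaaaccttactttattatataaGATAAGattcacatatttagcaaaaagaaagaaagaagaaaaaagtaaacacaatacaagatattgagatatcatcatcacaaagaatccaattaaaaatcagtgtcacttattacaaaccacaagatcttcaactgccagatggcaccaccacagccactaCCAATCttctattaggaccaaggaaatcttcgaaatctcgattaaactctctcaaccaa
LHCB2.2: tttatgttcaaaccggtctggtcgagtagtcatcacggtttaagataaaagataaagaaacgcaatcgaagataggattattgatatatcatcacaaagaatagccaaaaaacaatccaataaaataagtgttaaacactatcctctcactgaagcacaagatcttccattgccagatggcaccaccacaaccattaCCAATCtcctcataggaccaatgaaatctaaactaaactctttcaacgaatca
Both hold CCAATC, and LHCB2.1 also holds the I-box core GATAAG. The window of LHCB2.3, whose interaction was also called, lacks GATAAG. The interactions of LHCB2.1 and LHCB2.2 were not tested against each other.

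LHCB3 (AT5G54270, chr5:22038165-22039568), another LHCII protein, had 2273, 2133 and 2278 CPM in rdd YC4-R4 against 2365, 2659 and 2695 CPM in rdd control. It had 2919.9, 2885 and 2792 CPM in Col-0 YC4-R4 against 3851, 4097 and 4162 CPM in Col-0 control. It fell in both genotypes, with -0.21 ± 0.04 in rdd and -0.49 ± 0.04 in Col-0 on the log2 scale (SE; edgeR quasi-likelihood, Benjamini-Hochberg adjusted p = 5.54e-05 and 7.54e-13), with an interaction of 0.29 ± 0.06. Among the 8 LHCB1 and LHCB2 copies, and in LHCB3, every one fell with YC4-R4 under both genotype labels. LHCB3 overlaps a tested gene on the opposite strand by 186 bases, and LHCB4.2, LHCB6, LHCA4, PSAD2, PSAE1, PSAE2, PSAH2, PSAN, PSBP1 and PSBR also overlap another tested gene, so their counts are uncertain.

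The monomeric antenna proteins LHCB4, LHCB5 and LHCB6, known as CP29, CP26 and CP24, link the LHCII trimers to the photosystem II core. Their genes did not move as one. LHCB4.1 (AT5G01530, chr5:208866-210548) had 2796, 2588 and 2498 CPM in rdd YC4-R4 against 2516, 2502 and 2603 CPM in rdd control, where the libraries overlapped, and 2657, 2767 and 2741 CPM in Col-0 YC4-R4 against 3268, 3410.1 and 3377 CPM in Col-0 control, where they did not. Its log2 fold change was 0.05 ± 0.03 in rdd, not called, and -0.30 ± 0.03 in Col-0 (edgeR quasi-likelihood, Benjamini-Hochberg adjusted p = 8.35e-09). LHCB5 gave -0.04 and LHCB6 0.00 in rdd, neither called, with 95% intervals of -0.12 to 0.04 and -0.09 to 0.08. In Col-0 both fell, with -0.36 ± 0.04 and -0.33 ± 0.04. LHCB4.2 (AT3G08940, chr3:2717557-2718923) fell under both labels, with -0.26 ± 0.03 in rdd and -0.47 ± 0.03 in Col-0.

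LHCB4.3 (AT2G40100, chr2:16745628-16747424) was the exception among the 40 genes. It had 59.5, 49.1 and 51.7 CPM in the libraries labelled rdd YC4-R4, 32.6, 28.2 and 28 CPM in rdd control, 34.6, 33.5 and 34.3 CPM in Col-0 YC4-R4 and 33.1, 32.5 and 34.2 CPM in Col-0 control. The 3 rdd YC4-R4 libraries were the highest of the 12, and the other 9 lay between 28 and 34.6 CPM. With YC4-R4 it rose by 0.85 ± 0.06 on the log2 scale in rdd (edgeR quasi-likelihood, Benjamini-Hochberg adjusted p = 2.52e-13), and it was not called in Col-0, at 0.04 with a 95% interval of -0.12 to 0.19. It was higher in rdd than in Col-0 in YC4-R4 soil, by 0.64 ± 0.06, and slightly lower in control soil, at -0.17 ± 0.07 (edgeR quasi-likelihood, Benjamini-Hochberg adjusted p = 0.0377), a call that was lost with library totals in place of TMM, in DESeq2, without Col-0 control replicate 1, without Col-0 control replicate 3, without rdd control replicate 2 and without rdd control replicate 3. The interaction, 0.82 ± 0.09, was the largest of the 40. LHCB4.3 made up 1.39% ± 0.092 of the LHCB4 counts in rdd YC4-R4, 0.748% ± 0.083 in rdd control, 0.82% ± 0.025 in Col-0 YC4-R4 and 0.625% ± 0.024 in Col-0 control (SD, n = 3 each). Per kilobase it stood at 36.9 ± 3.72 CPM in rdd YC4-R4, where LHCB4.1 stood at 1882 ± 109 CPM.

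**Figure D3:**
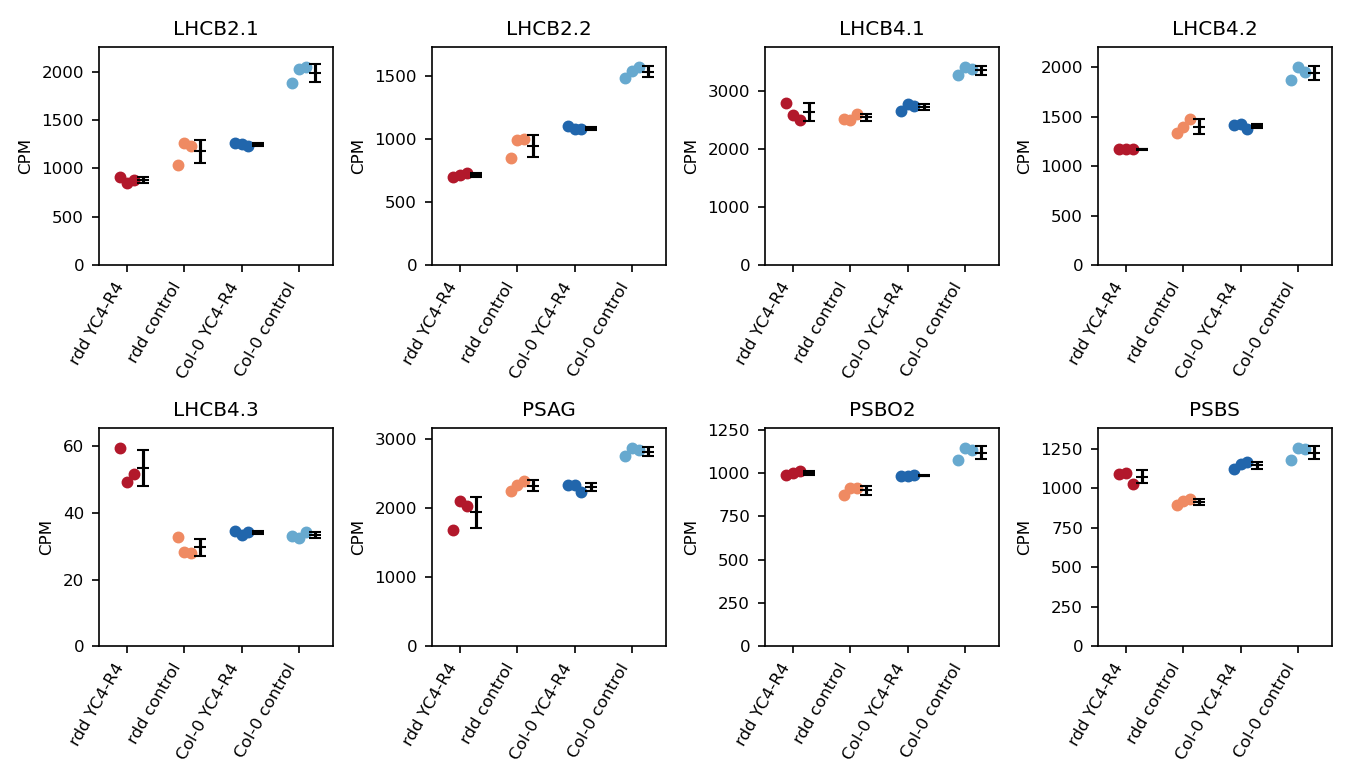
CPM (y axis, from 0) of 8 genes in each library (points, 3 per group) with the mean and SD beside them. LHCB2.1 and LHCB2.2 are lowest in rdd YC4-R4, LHCB4.3 is highest there, PSAG has 1 low rdd YC4-R4 library, and PSBO2 and PSBS are higher in rdd YC4-R4 than in rdd control.

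The coding sequence of LHCB4.3 is 65.2% identical to LHCB4.1 and 66.5% to LHCB4.2, which are 81.1% identical to each other, and none of the 3 shares a 50-base word with another place in the genome. Their promoters are printed because LHCB4.3 departs from its copies; they lie at chr5:208616-208865, plus strand, for LHCB4.1, chr3:2717307-2717556, plus strand, for LHCB4.2, and chr2:16745378-16745627, plus strand, for LHCB4.3, in TAIR10.1, with motif matches in capitals.
LHCB4.1: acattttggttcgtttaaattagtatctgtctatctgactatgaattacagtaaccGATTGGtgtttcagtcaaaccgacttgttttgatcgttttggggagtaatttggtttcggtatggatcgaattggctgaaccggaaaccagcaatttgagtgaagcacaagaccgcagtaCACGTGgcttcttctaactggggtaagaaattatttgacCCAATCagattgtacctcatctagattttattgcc
LHCB4.2: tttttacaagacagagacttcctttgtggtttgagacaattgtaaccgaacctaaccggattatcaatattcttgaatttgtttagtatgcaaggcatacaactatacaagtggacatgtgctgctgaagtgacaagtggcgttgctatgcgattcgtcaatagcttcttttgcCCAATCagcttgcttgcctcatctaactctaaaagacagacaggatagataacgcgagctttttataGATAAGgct
LHCB4.3: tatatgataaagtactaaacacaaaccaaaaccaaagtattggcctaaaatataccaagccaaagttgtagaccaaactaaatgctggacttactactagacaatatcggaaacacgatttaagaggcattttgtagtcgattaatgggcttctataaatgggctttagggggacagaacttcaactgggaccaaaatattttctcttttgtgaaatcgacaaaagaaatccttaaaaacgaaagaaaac
LHCB4.1 holds CCAATC, on both strands, as well as the G-box CACGTG. LHCB4.2 holds CCAATC as well as the I-box core GATAAG. None of the 5 motifs searched is in the LHCB4.3 window. The windows of LHCB1.2, LHCB3, LHCB5 and LHCA2, genes that fell with YC4-R4 in Col-0, lack them too. So do those of many core genes, PSAD2 and PSBO1 among them. No link between motifs and changes was tested.

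The LHCA genes encode the antenna belt of photosystem I. LHCA1, LHCA3 and LHCA4 fell under both genotype labels and LHCA2 passed the test under the Col-0 label. LHCA1 (AT3G54890, chr3:20339504-20341176) had 2881, 2772 and 2851 CPM in rdd YC4-R4 against 3236, 3489 and 3552 CPM in rdd control, and 3534, 3505 and 3442 CPM in Col-0 YC4-R4 against 4468, 4603 and 4596 CPM in Col-0 control. No library of 1 soil overlapped the other in either genotype, and the log2 fold changes were -0.27 ± 0.03 in rdd and -0.38 ± 0.03 in Col-0 (edgeR quasi-likelihood, Benjamini-Hochberg adjusted p = 1.75e-08 and 5.75e-12). LHCA2 (AT3G61470, chr3:22745514-22747444) had 3526, 3264 and 3317 CPM in rdd YC4-R4 against 3155, 3305 and 3349 CPM in rdd control, with overlap, and 3351, 3282 and 3299 CPM in Col-0 YC4-R4 against 3970.0, 4063 and 4083 CPM in Col-0 control, without. Its change was 0.04 ± 0.03 in rdd, not called, and -0.29 ± 0.03 in Col-0, and the difference between them, 0.33 ± 0.05, was called (edgeR quasi-likelihood, Benjamini-Hochberg adjusted p = 3.85e-07). Of the 50-base words of LHCA2, 11.4% also occur elsewhere in the genome, but 0% of its 100-base words. Its value is thus uncertain if reads were short. LHCA3 changed by -0.21 in rdd and -0.42 in Col-0, and LHCA4 by -0.18 and -0.40. The interaction for LHCA1, 0.11, was not called (95% interval 0.00 to 0.22).

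The antenna genes had larger median changes than the core genes. With YC4-R4, the median log2 fold change in rdd was -0.24 over the 18 antenna genes and -0.08 over the 22 core subunit genes, and in Col-0 it was -0.48 and -0.28. Between rdd and Col-0 it was -0.19 for antenna and -0.12 for core genes in YC4-R4 soil, and -0.48 and -0.31 in control soil. With near-identical copies summed, each copy taking the value of its sum, the YC4-R4 soil medians were -0.15 and -0.12. The antenna genes were not alike. With YC4-R4, the 8 LHCB1 and LHCB2 copies had medians of -0.35 in rdd and -0.56 in Col-0, and the 4 LHCA genes -0.20 and -0.39. Under both labels LHCB4.1, LHCB5, LHCB6 and LHCA2 lay closer to the core median than to the antenna median. The mean log2 CPM of the antenna genes minus that of the core genes, 1 value per library, averaged 0.35 ± 0.10 in rdd YC4-R4, 0.44 ± 0.03 in rdd control, 0.44 ± 0.01 in Col-0 YC4-R4 and 0.62 ± 0.01 in Col-0 control (SD, n = 3 each). Col-0 control stood above every other library, rdd control and Col-0 YC4-R4 overlapped, and the rdd YC4-R4 libraries were spread over 0.28 to 0.46. This antenna-minus-core value changed by -0.09 with YC4-R4 in rdd and by -0.18 in Col-0. No p is given for it, since the members were chosen with results of these data known.

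**Figure D4:**
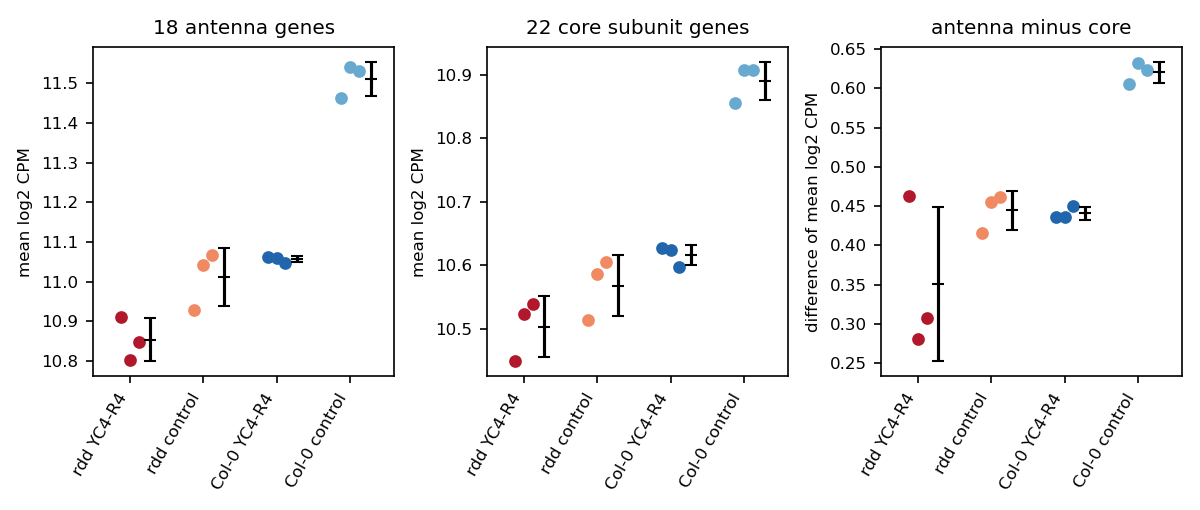
Mean log2 CPM of the 18 antenna genes (left) and 22 core subunit genes (middle), and their difference (right), in each library (points) with group mean and SD. Col-0 control is highest in all 3 panels; in the right panel 1 rdd YC4-R4 library lies at 0.46, with the other 2 at 0.28 and 0.31.

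The libraries labelled rdd YC4-R4 were less alike than those of the other groups. Their member genes had a median coefficient of variation of 5.19%, against 3.72% in rdd control, 1.2% in Col-0 YC4-R4 and 2.86% in Col-0 control. Replicate 1 stood apart: set against the rdd control mean, its median change was -0.19 over antenna genes and -0.16 over core genes, while replicate 2 gave -0.26 and -0.06 and replicate 3 gave -0.26 and -0.03. Without replicate 1, the antenna-minus-core change in rdd was -0.15, without replicate 2 it was -0.06 and without replicate 3 it was -0.07. The same 3 omissions gave -0.15, -0.06 and -0.07 for rdd against Col-0 in YC4-R4 soil, where all libraries gave -0.09, and 0.03, 0.12 and 0.11 for the interaction, where all gave 0.09. The sign was the same under these 3 omissions, and the size depended on the library left out.

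Of the 12 photosystem I subunit genes, all fell with YC4-R4 in Col-0, while in rdd 7 fell and none rose. The shares over all genes were 16.9% lower and 12.9% higher in Col-0, and 17.1% lower and 15.1% higher in rdd. PSAD and PSAE help to dock ferredoxin on the stromal side, PSAF lies on the plastocyanin side, and PSAH, PSAL and PSAO face the region where LHCII binds in state transitions. PSAD2 (AT1G03130, chr1:753307-754262) had 661, 729 and 799.9 CPM in rdd YC4-R4 against 823, 929 and 927 CPM in rdd control, and 908, 884 and 883 CPM in Col-0 YC4-R4 against 1182, 1209 and 1198 CPM in Col-0 control. It changed by -0.29 ± 0.05 in rdd and -0.42 ± 0.05 in Col-0 (log2, SE), the largest fall among core genes in both. PSAF changed by -0.19 ± 0.03 in rdd and -0.34 ± 0.03 in Col-0. PSAD1 and PSAE1 changed by -0.10 and -0.10 in rdd, and by -0.28 and -0.30 in Col-0. In rdd the PSAD1 call was lost with library totals in place of TMM, with the 2 groups fitted alone, without rdd control replicate 2, without rdd control replicate 3 and without rdd YC4-R4 replicate 1, and the PSAE1 call with library totals in place of TMM, with the 2 groups fitted alone, without rdd control replicate 3 and without rdd YC4-R4 replicate 1. PSAE2, PSAH1, PSAK, PSAN and PSAO were not called in rdd, where their values lay between -0.06 (PSAH1) and 0.04 (PSAK). In Col-0 these 5 gave -0.23 (PSAE2), -0.15 (PSAH1), -0.31 (PSAK), -0.29 (PSAN) and -0.40 (PSAO), and the PSAH1 call was lost with library totals in place of TMM.

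In PSAG, PSAL and PSAH2 the size of the soil effect in rdd depended on 1 library. PSAG (AT1G55670, chr1:20802670-20803449), a peripheral subunit that helps to anchor the antenna belt, had 1681, 2096 and 2034 CPM in rdd YC4-R4 against 2239.8, 2338 and 2393 CPM in rdd control, and 2329.8, 2335 and 2236 CPM in Col-0 YC4-R4 against 2746, 2871 and 2835 CPM in Col-0 control. Replicate 1 of rdd YC4-R4 was well below its 2 partners, and the log2 fold changes were -0.26 ± 0.05 in rdd and -0.29 ± 0.05 in Col-0. PSAL changed by -0.21 in rdd and -0.23 in Col-0, and PSAH2 by -0.19 and -0.25. The interaction was not called for PSAG (0.03, 95% interval -0.12 to 0.18), PSAL (0.02, -0.10 to 0.15) or PSAH2 (0.06, -0.09 to 0.21). Without replicate 1 of rdd YC4-R4 the changes in rdd were -0.17 for PSAG, -0.15 for PSAL and -0.11 for PSAH2, and the interaction was called for PSAG, at 0.12, and PSAH2, at 0.14, but not for PSAL, at 0.08. PSAO (AT1G08380, chr1:2640803-2641934) had the largest interaction of the photosystem I genes, 0.42 ± 0.08 (edgeR quasi-likelihood, Benjamini-Hochberg adjusted p = 7.71e-05): it had 2052, 1772 and 1846 CPM in rdd YC4-R4 against 1662, 1955 and 1956 CPM in rdd control, and 1918, 1896 and 1591 CPM in Col-0 YC4-R4 against 2352, 2226 and 2529 CPM in Col-0 control, and its log2 fold change was 0.02 ± 0.06 in rdd and -0.40 ± 0.06 in Col-0.

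The calls of the 10 photosystem II subunit genes differed between the genotype labels. The interaction was called positive in 9, against 16.2% of all genes and 59.0% of the 156 other abundant genes. All 10 fell with YC4-R4 in Col-0, where 16.9% of all genes fell and 12.9% rose. In rdd 2 fell and 2 rose, near the 17.1% lower and 15.1% higher of all genes. PSBO, PSBP, PSBQ and PSBR belong to the oxygen-evolving side of the complex, where PSBO stabilises the manganese cluster. PSBO1 (AT5G66570, chr5:26568572-26570461) had 3537, 3333 and 3521 CPM in rdd YC4-R4 against 3353, 3520.2 and 3561 CPM in rdd control, which overlapped, and 3524, 3510.2 and 3445 CPM in Col-0 YC4-R4 against 4302, 4336 and 4404 CPM in Col-0 control, which did not. It changed by -0.01 ± 0.03 in rdd (95% interval -0.08 to 0.07) and by -0.32 ± 0.03 in Col-0, with an interaction of 0.31 ± 0.04 (edgeR quasi-likelihood, Benjamini-Hochberg adjusted p = 7.87e-07). PSBO2 (AT3G50820, chr3:18890874-18892508), its other copy, had 989.9, 997 and 1009 CPM in rdd YC4-R4 against 870.0, 915 and 916 CPM in rdd control, and 984, 984 and 986 CPM in Col-0 YC4-R4 against 1074, 1145 and 1134 CPM in Col-0 control. In rdd the YC4-R4 libraries were wholly above control and in Col-0 wholly below, with log2 fold changes of 0.15 ± 0.03 (edgeR quasi-likelihood, Benjamini-Hochberg adjusted p = 0.000458) and -0.18 ± 0.03 (adjusted p = 3.37e-05, same test). PSBP1 and PSBQ2 fell in rdd, with -0.11 and -0.19, and in Col-0, with -0.29 and -0.36. The rdd call for PSBP1 was lost with library totals in place of TMM, with the 2 groups fitted alone, without rdd control replicate 3 and without rdd YC4-R4 replicate 1.

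PSBS (AT1G44575, chr1:16870221-16873427), the photosystem II protein that senses lumen acidity and triggers dissipation of excess light, rose in rdd, as LHCB4.3 and PSBO2 did. It had 1091, 1098 and 1025 CPM in the libraries labelled rdd YC4-R4, 896, 916 and 933 CPM in rdd control, 1121, 1149.9 and 1164 CPM in Col-0 YC4-R4 and 1176, 1255 and 1245 CPM in Col-0 control. Its lowest group was rdd control and its highest was Col-0 control. It rose by 0.23 ± 0.03 on the log2 scale in rdd (edgeR quasi-likelihood, Benjamini-Hochberg adjusted p = 1.87e-06) and was at -0.10 ± 0.03 in Col-0 (adjusted p = 0.029, same test). That Col-0 call was lost with library totals in place of TMM, without Col-0 control replicate 2, without Col-0 control replicate 3, without Col-0 YC4-R4 replicate 1 and without Col-0 YC4-R4 replicate 2, and with library totals the value was 0.0081, on the other side of 0. PSBQ1, PSBR, PSBW, PSBX and PSBY were not called in rdd, at 0.06, -0.01, -0.09, 0.01 and -0.12, and in Col-0 all 5 fell, with -0.23, -0.24, -0.33, -0.24 and -0.28. The photosystem II gene with no called interaction was PSBY. Its rdd YC4-R4 libraries were spread, at 738 ± 80.3 CPM per kb, against 800 ± 49.3 in rdd control (SD, n = 3 each). Replicate 1 of rdd YC4-R4 was low, with 13211 PSBY counts of 16351870. Replicates 2 and 3 had 17874 of 18085063 and 19917 of 20229670. The interaction was called positive in 7 of the 12 photosystem I genes and in 15 of the 18 antenna genes, and negative in none. Of all genes 16.2% were called positive and 14.4% negative. Of the 156 other abundant genes 59.0% were called positive and 14.1% negative, so the photosystem I count is near their share.

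Between the genotype labels in YC4-R4 soil, 13 of the 40 genes were not called. They were 5 antenna genes (LHCB1.3, LHCB1.4, LHCB4.1, LHCB5 and LHCA2) and 8 core genes (PSAE2, PSAK, PSAN, PSAO, PSBO1, PSBO2, PSBQ1 and PSBR), with log2 fold changes from -0.09 (LHCB5) to 0.07 (PSAO). The lowest core value was -0.32 ± 0.05, for PSAH2. The call for PSBS, -0.10, was lost with library totals in place of TMM, with the 2 groups fitted alone, without Col-0 YC4-R4 replicate 2, without Col-0 YC4-R4 replicate 3 and without rdd YC4-R4 replicate 3. The call for PSBX, -0.09, was lost with library totals in place of TMM, with the 2 groups fitted alone, without Col-0 YC4-R4 replicate 1, without Col-0 YC4-R4 replicate 2, without Col-0 YC4-R4 replicate 3 and without rdd YC4-R4 replicate 1, and that for PSBQ2, -0.12, without Col-0 YC4-R4 replicate 2 and without rdd YC4-R4 replicate 1. In control soil all 40 were lower in rdd, from -0.75 (LHCB2.1) to -0.17 (LHCB4.3).

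Across the 40 genes, those that fell more in Col-0 also tended to fall more, or rise less, in rdd. The log2 fold changes of the 2 genotypes, which share no library, had a Pearson r of 0.77 and a Spearman rho of 0.75 over the 40 genes, as a description: genes are not independent replicates, all libraries were scaled together, and near-identical copies share reads. LHCB2.1 and LHCB1.4 were near the low end in both, at -0.42 and -0.32 in rdd and -0.67 and -0.84 in Col-0. PSBS and LHCB4.3 were at the high end in both.

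The other nuclear genes of the photosynthetic membrane did not repeat the fall in rdd. Of 14 genes for electron carriers, cyclic flow and ATP synthase subunits, none fell and 10 rose with YC4-R4 in rdd, whereas 13 fell and none rose in Col-0, with an interaction called in all 14. Of all genes 15.1% rose and 17.1% fell in rdd, and 12.9% rose and 16.9% fell in Col-0; of the 156 abundant genes outside the set 46.8% rose and 23.1% fell in rdd, and 12.8% rose and 56.4% fell in Col-0. FD2, the main leaf ferredoxin, had 1401, 1436 and 1436 CPM in rdd YC4-R4 against 1274, 1239 and 1319.9 CPM in rdd control, and 1369, 1374 and 1353 CPM in Col-0 YC4-R4 against 1562, 1657 and 1636 CPM in Col-0 control. In rdd the YC4-R4 libraries were wholly higher and in Col-0 wholly lower than control. Its log2 fold change was 0.16 ± 0.03 in rdd and -0.24 ± 0.03 in Col-0 (edgeR quasi-likelihood, Benjamini-Hochberg adjusted p = 0.000221 and 1.64e-07). FNR1, a ferredoxin-NADP reductase of the leaf, changed by 0.24 ± 0.03 in rdd and -0.18 ± 0.03 in Col-0. FD1 was -0.40 between rdd and Col-0 in YC4-R4 soil and -0.60 in control soil, the called member of this list with the smallest adjusted p in both.

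Of 5 genes for antenna phosphorylation and the xanthophyll cycle, none fell and 4 rose with YC4-R4 in rdd, and all 5 fell in Col-0. For these and the next 2 lists, the shares over all genes were 17.1% lower and 15.1% higher in rdd. In Col-0 they were 16.9% lower and 12.9% higher. STN7, the kinase that phosphorylates LHCII, had 98.7, 96.1 and 101 CPM in rdd YC4-R4 against 84.9, 92.2 and 92.8 CPM in rdd control, and 98.8, 104 and 101 CPM in Col-0 YC4-R4 against 118, 118 and 123 CPM in Col-0 control. It rose by 0.13 ± 0.04 in rdd and was at -0.24 ± 0.04 in Col-0 (log2, SE; edgeR quasi-likelihood, Benjamini-Hochberg adjusted p = 0.0198 and 2.86e-05), whereas its substrate genes LHCB1 and LHCB2 fell under both labels. STN8, the kinase of photosystem II core proteins, changed by 0.29 in rdd and -0.21 in Col-0, and ZEP, which makes violaxanthin, by 0.03, not called, and -0.35. Of 4 genes that deliver antenna proteins to the thylakoid, 1 rose in rdd and 3 fell in Col-0. CPSRP43, the chaperone of the chloroplast signal recognition particle, was 0.21 ± 0.04 in rdd and -0.30 ± 0.04 in Col-0. Of 5 rare antenna and early light-induced genes, 4 were tested, ELIP2 being too low: none fell and 3 rose in rdd, and 3 fell and 1 rose in Col-0. LHCA5 and LHCA6, which join photosystem I to the NDH complex, rose in rdd, with 0.27 and 0.28, and fell in Col-0, with -0.27 and -0.28. LHCB7, a rare antenna protein, was at 0.24 in rdd, not called, and -0.39 in Col-0. ELIP1, an early light-induced pigment-binding protein, was called higher with YC4-R4 under both labels at levels near the filter: it had 0.357, 0.534 and 0.769 CPM in the libraries labelled rdd YC4-R4, 0.0682, 0.105 and 0.11 CPM in rdd control, 1.53, 1.06 and 1.01 CPM in Col-0 YC4-R4 and 0.465, 0.617 and 0.846 CPM in Col-0 control.

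**Figure D5:**
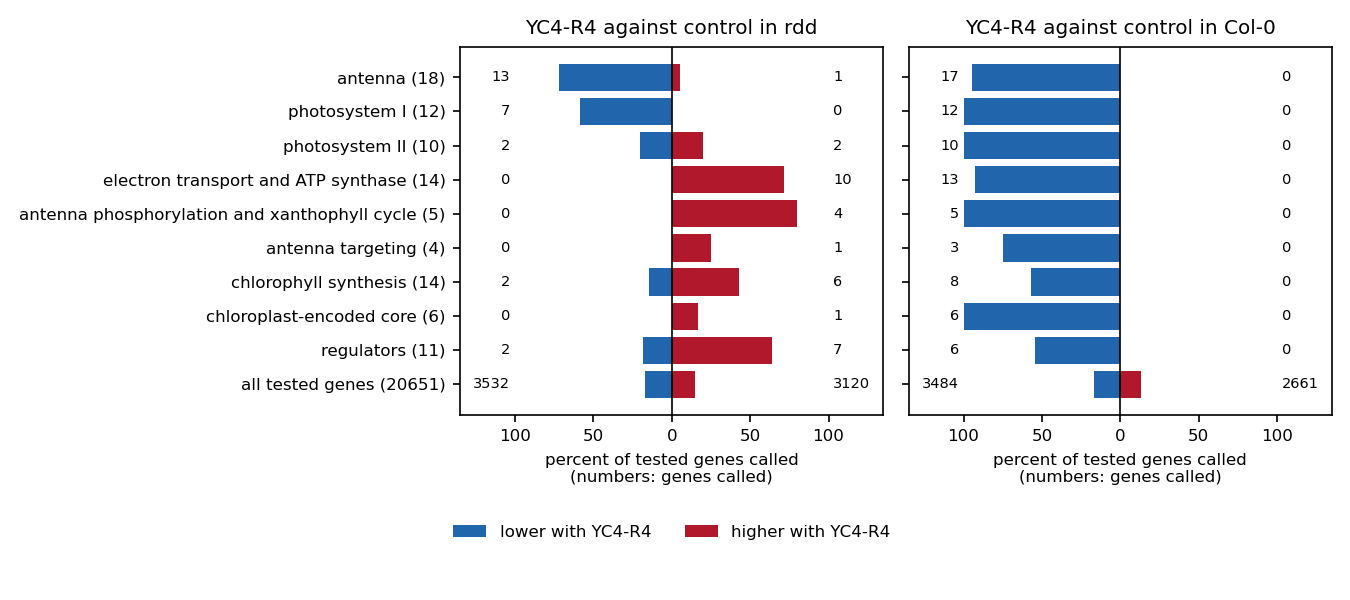
Percent of the tested genes of each list (y axis, number tested in brackets) called lower (blue, left of 0) or higher (red, right of 0) with YC4-R4, in rdd (left panel) and Col-0 (right panel), with the number of genes called at the edges. In Col-0 every photosynthesis list is mostly blue; in rdd the antenna and photosystem I lists stay mostly blue, 13 and 7 genes, while electron transport has 10 genes higher and none lower.

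Chlorophyll synthesis, which the antenna depends on, was mixed in rdd. Of 14 genes, 2 fell and 6 rose with YC4-R4 in rdd, and 8 fell and none rose in Col-0. Over all genes 17.1% fell and 15.1% rose in rdd, so the 2 that fell there do not exceed that share. In Col-0 16.9% of all genes fell and 12.9% rose. HEMA1, the glutamyl-tRNA reductase that starts the pathway, fell under both labels, with -0.32 ± 0.04 in rdd and -0.53 ± 0.03 in Col-0 (log2, SE; edgeR quasi-likelihood, Benjamini-Hochberg adjusted p = 3.36e-09 and 3.73e-15). GUN5, the H subunit of magnesium chelatase, was at 0.05 ± 0.03 in rdd, not called, and -0.39 ± 0.03 in Col-0, and its activator GUN4 at -0.09 ± 0.06, not called, and -0.51 ± 0.06. Between rdd and Col-0 in control soil, GUN5 was -0.65 and GUN4 -0.79. Of 5 chlorophyll breakdown genes, none fell and 4 rose with YC4-R4 in rdd, and 1 fell and 2 rose in Col-0. NYC1, which reduces chlorophyll b, was at 0.19 in rdd and -0.26 in Col-0.

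Regulators of photosynthesis genes also differed between the genotype labels. Of 11, 2 fell and 7 rose with YC4-R4 in rdd, and 6 fell and none rose in Col-0. Over all genes 17.1% fell and 15.1% rose in rdd, and 16.9% fell and 12.9% rose in Col-0. GLK1, a transcription factor that activates antenna and chlorophyll genes, had 82.6, 88.3 and 76.1 CPM in the libraries labelled rdd YC4-R4, 56.4, 54 and 61.7 CPM in rdd control, 93.5, 91.4 and 92.4 CPM in Col-0 YC4-R4 and 132, 136 and 133 CPM in Col-0 control. The rdd YC4-R4 libraries were wholly above rdd control, the Col-0 YC4-R4 libraries wholly below Col-0 control, and rdd control was lowest of all. Its log2 fold change was 0.52 ± 0.05 in rdd and -0.53 ± 0.05 in Col-0 (edgeR quasi-likelihood, Benjamini-Hochberg adjusted p = 2.71e-10 and 2.02e-11), while the LHCB1 and LHCB2 genes fell in both. GLK2, its partner, averaged 76.4 ± 3.87 CPM in rdd YC4-R4, 46.2 ± 1.05 in rdd control, 60.7 ± 1.3 in Col-0 YC4-R4 and 78.5 ± 2.09 in Col-0 control (SD, n = 3 each), and changed by 0.72 ± 0.05 in rdd and -0.37 ± 0.05 in Col-0. The 2 that fell in rdd were PIF4 and PIF5, factors that act in dark and warm growth, at -0.55 and -1.03. They fell in Col-0 too, with -0.77 and -0.66.

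CCA1 and LHY, transcription factors of the morning clock known to bind antenna promoters, differed between groups as well. CCA1 had 11.7, 11.8 and 10.8 CPM in the libraries labelled rdd YC4-R4, 10.6, 10.8 and 12.3 CPM in rdd control, 17.7, 17.1 and 18.8 CPM in Col-0 YC4-R4 and 29.7, 31 and 31.3 CPM in Col-0 control. Col-0 control was highest, Col-0 YC4-R4 intermediate, and the 2 rdd groups low and overlapping. LHY averaged 14 ± 0.905 CPM in rdd YC4-R4, 10.7 ± 0.911 in rdd control, 9.32 ± 0.496 in Col-0 YC4-R4 and 19.9 ± 0.436 in Col-0 control (SD, n = 3 each). With YC4-R4, CCA1 was at 0.02 ± 0.09 in rdd, not called, and -0.78 ± 0.07 in Col-0, and LHY at 0.38 ± 0.09 and -1.09 ± 0.09 (edgeR quasi-likelihood, Benjamini-Hochberg adjusted p = 0.00126 and 1.92e-12). Both peak at dawn, and the hour of harvest is not in the labels. Summed over both genes the level was 24.8 to 26.6 CPM in rdd YC4-R4, 20.5 to 23.0 in rdd control, 25.9 to 28.5 in Col-0 YC4-R4 and 49.3 to 51.4 in Col-0 control, with neither at 0, and its part in the antenna and core values was not tested.

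The chloroplast-encoded core genes of the photosystems were highest in Col-0 control. All 6 counted (psaA, psaB, psbA, psbB, psbC and psbD) fell with YC4-R4 in Col-0, where 16.9% of all genes fell and 12.9% rose. In rdd none fell and 1, psbD, rose, beside 17.1% lower and 15.1% higher of all genes. Their summed level was 292 to 484 CPM in rdd YC4-R4, 279 to 329 in rdd control, 319 to 325 in Col-0 YC4-R4 and 533 to 595 in Col-0 control. Replicate 3 of rdd YC4-R4 made the upper end of its range; psaB, for instance, had 7.86, 5.87 and 16.6 CPM in rdd YC4-R4 against 8.8, 9.39 and 8.09 CPM in rdd control. Without that library psaB changed by -0.36 in rdd in place of 0.24, and psbD, whose libraries overlapped, by 0.06 in place of 0.31. The psbD call was also lost in DESeq2 and without rdd control replicate 3, at 0.25. With YC4-R4 in Col-0, psbA changed by -1.94, and in YC4-R4 soil psbB was 0.30 for rdd against Col-0. Without rdd YC4-R4 replicate 3 psbB was 0.10 there and not called, and that call was also lost in DESeq2, without Col-0 YC4-R4 replicate 2 and without Col-0 YC4-R4 replicate 3. Chloroplast transcripts largely lack long poly(A) tails, and the labels call the libraries mRNA-seq without giving the selection method, so their levels are not set against those of the nuclear genes.

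Marker genes of leaf and root also differed between the groups. The 3 leaf markers (RBCS1A, RCA and CA1, for carbon fixation in mesophyll) all rose with YC4-R4 in rdd and all fell in Col-0, with summed levels of 18512 to 19142 CPM in rdd YC4-R4, 16462 to 16763 in rdd control, 17837 to 18186 in Col-0 YC4-R4 and 20106 to 21118 in Col-0 control. RCA, Rubisco activase, was at 0.21 in rdd and -0.31 in Col-0, and CA1, a carbonic anhydrase, at 0.29 and -0.13. In rdd 13 of the 18 antenna genes fell while these 3 markers rose. Of 14 root markers, 8 fell and none rose with YC4-R4 in rdd, and 3 fell and 2 rose in Col-0, beside the 17.1% lower and 15.1% higher of all genes in rdd and the 16.9% and 12.9% in Col-0. For rdd against Col-0, 1 was lower and 10 were higher in control soil (median 0.48 on the log2 scale; of all genes 23.0% were lower and 20.9% higher), where all 40 photosystem and antenna genes were lower, and 1 was lower and 2 higher in YC4-R4 soil (median -0.01). Their summed level, most of it PYK10, was 1171 to 1192 CPM in rdd YC4-R4, 1190 to 1245 in rdd control, 1217 to 1231 in Col-0 YC4-R4 and 1323 to 1344 in Col-0 control. None of the 14 was at 0 in any group, and PYK10 changed by 0.04 in rdd, not called, and -0.15 in Col-0, and was -0.28 for rdd against Col-0 in control soil. TIP2;3, an aquaporin of roots, was 0.32 between rdd and Col-0 in YC4-R4 soil and 0.61 in control soil, and THAD1, of root triterpene synthesis, was -0.53 with YC4-R4 in rdd. The 4 floral markers summed to 1.28 to 2.62 CPM in rdd YC4-R4, 1.76 to 1.91 in rdd control, 2.34 to 2.81 in Col-0 YC4-R4 and 1.4 to 1.69 in Col-0 control. The senescence marker SAG12 was at 0 in every library of 3 groups, and SAG13 was -0.08 with YC4-R4 in rdd, not called, and 0.75 in Col-0. The part of organ composition in the values of the 40 genes was not tested.

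Promoter windows of all 40 genes were searched for 5 motifs linked to light, the clock or GLK factors, on both strands, in the 250 bases before each annotated gene start. CCAATC, a motif reported for GLK targets that also contains the letters of the CCAAT box, was in 10 of the 18 antenna windows and in 1 of the 22 core windows, against 10.2% of 27443 nuclear protein-coding promoters of the same length. The antenna genes with it were LHCB1.3, LHCB1.5, the 3 LHCB2 copies, LHCB4.1, LHCB4.2, LHCA1, LHCA3 and LHCA4. GATAAG, the I-box core, was in 4 antenna and 5 core windows (12.3% of all promoters), and CACGTG, the G-box, in 4 and 4 (6.49%). AAAAATCT, bound by CCA1, was in 3 and 2 (6.69%), and the evening element AAAATATCT was in none (2.36%). A match describes the letters of the window and not binding, and the gene starts are those of the annotation.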

How the data were processed

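RNA of whole 2-week-old plants was sequenced in 12 libraries, grouped by the genotype and treatment labels. Extraction with RNeasy and NEBNext Ultra Directional libraries are stated in the labels' protocols. The authors deposited a table of raw counts for every gene; per the submitters' processing notes Trimmomatic 0.36, HISAT2 2.1.0 and HTSeq 0.9.1 were used with the TAIR10 build. How strand and multiply mapped reads were handled, and which gene models served, is not given in the sources used here, so values of overlapping genes and of near-identical copies are uncertain.

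The deposited counts were analysed in R 4.3.3 with edgeR 4.0.16. Of 33602 genes, 6493 had no count, and 20651 passed filterByExpr with the 4 groups. TMM-scaled counts were fitted by quasi-likelihood, each group with its own mean, over all 12 libraries (8 residual degrees of freedom), and p-values were adjusted over all 20651 genes by Benjamini-Hochberg, with calls at 0.05. Standard errors were taken as the log2 fold change over the square root of its F value, and intervals are at 95%. CPM used TMM-scaled totals, and mean log2 CPM a prior count of 2. DESeq2 1.42.0 served as an alternative. The labels and headers name no batch. Scripts were tested on simulated data.

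The 40 genes, the other gene lists and the motifs were chosen with earlier results of these data known. Every one of the 40 is accounted for; from each other list the called gene with the smallest adjusted p in each comparison of 2 groups is named, plus GLK1, GLK2, GUN4, GUN5, CCA1, LHY, STN7 and the 3 demethylases. Gene positions, sequences and promoters come from the RefSeq copy of TAIR10.1; the count files carry no coordinates.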

Additional observations from a re-analysis of the deposited data

Results flagged for a closer look

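The YC4-R4 effect differed between the libraries labelled rdd and those labelled Col-0 by an interaction test in 31 of the 40 genes (adjusted p under 0.05, edgeR quasi-likelihood with Benjamini-Hochberg adjustment). It also differed in 7 of the genes outside the set that were to be named in any case. The values are log2 fold changes with YC4-R4 under the rdd label less those under the Col-0 label, and all those listed here are positive. Other genes outside the set are not listed. Among the 11 regulators, 8 interactions were called positive and 1 was called negative, at -0.37. Among antenna genes they were 0.28 for LHCB1.1, 0.40 for LHCB1.3, 0.52 for LHCB1.4, 0.32 for LHCB1.5, 0.25 for LHCB2.1, 0.16 for LHCB2.3, 0.29 for LHCB3, 0.35 for LHCB4.1, 0.21 for LHCB4.2, 0.82 for LHCB4.3, 0.32 for LHCB5, 0.32 for LHCB6, 0.33 for LHCA2, 0.20 for LHCA3 and 0.22 for LHCA4. LHCB4.3 is the gene that rose in rdd while LHCB4.2 fell. Among photosystem I genes they were 0.18 for PSAD1, 0.19 for PSAE1, 0.26 for PSAE2, 0.15 for PSAF, 0.34 for PSAK, 0.28 for PSAN and 0.42 for PSAO. Among photosystem II genes they were 0.31 for PSBO1, 0.33 for PSBO2, 0.18 for PSBP1, 0.29 for PSBQ1, 0.16 for PSBQ2, 0.23 for PSBR, 0.32 for PSBS, 0.24 for PSBW and 0.26 for PSBX. For the 7 genes outside the set they were 0.37 for STN7, 0.42 for GUN4, 0.43 for GUN5, 1.05 for GLK1, 1.09 for GLK2, 0.80 for CCA1 and 1.47 for LHY. Among the 31, the call was lost in DESeq2 for LHCB1.1 and LHCB2.1, and with library totals for LHCB2.3, PSAD1, PSAF, PSBP1 and PSBQ2. For PSBQ2 and LHCB2.3 it was also lost without Col-0 control replicate 2. For LHCB2.3 it was lost as well without Col-0 control replicate 3, without Col-0 YC4-R4 replicate 3 and without rdd control replicate 1. In both PSBO2 and PSBS the rdd libraries moved up and the Col-0 libraries moved down. DML2 and DML3, the labelled mutated genes, differed more by soil label than by genotype label, with DML3 also lower under the rdd label in control soil, and the interaction values do not depend on which of rdd control and Col-0 YC4-R4 has which name.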

How the results depend on the processing

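The counts of called genes among the 40 were recomputed with other scaling (RLE, library totals, TMM without the members), DESeq2, no filter, only the groups compared, summed near-identical copies, a replicate block and each library left out. Of 3960 single-gene values of the 40, 3866 kept direction and call, 55 lost a call, 37 gained one and 2 reversed. The reversed ones were PSBS in Col-0 with library totals, at 0.0081, and LHCB1.3 between rdd and Col-0 in YC4-R4 soil with copies summed, at -0.11. Outside the set psaB reversed without rdd YC4-R4 replicate 3: leaving out single libraries gave -0.36 to 0.52 with YC4-R4 in rdd and -0.43 to 0.45 for rdd against Col-0 in YC4-R4 soil. The cause was not tested. Library totals put the median of all genes at 0.04 in rdd, 0.11 in Col-0, 0.03 between genotypes in YC4-R4 soil, 0.10 in control soil and -0.07 for the interaction. With each library left out in turn, 18 to 24 of the 40 fell and 3 to 4 rose with YC4-R4 in rdd, and 38 to 39 fell in Col-0. For rdd against Col-0, 23 to 27 were lower and 1 to 2 higher in YC4-R4 soil, and 39 to 40 lower in control soil. The interaction was called in 29 to 37.

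The antenna-minus-core change in Col-0, -0.18, was -0.21 as a median over members and -0.13 with copies summed, and that of rdd against Col-0 in control soil, also -0.18, was -0.14 with copies summed. The genes in the other lists were also counted, leaving out the demethylases and the root, leaf, floral and senescence markers. Of the genes so counted, 3 were called higher with YC4-R4 in Col-0. This was 8 with library totals, 1 with DESeq2, 5 with the 2 groups alone and 0 to 5 with single libraries left out. With library totals, 1 such gene was higher in rdd than in Col-0 in control soil, against 0, and 2 had a negative interaction, against 1.

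With the replicate number as a block, 24 of the 40 fell and 3 rose with YC4-R4 in rdd, and 39 fell in Col-0; the interaction was called in 32. The numbers share no stated litter, batch or day, and same-numbered libraries did not deviate together (correlations of -0.08 to 0.05 over 18 pairs, against -0.09 to 0.06 over 36 pairs with other numbers). The antenna-minus-core value was not recomputed with DESeq2, the block, the unfiltered fit or the 2-group fit.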
